A study of Mus musculus with 2 samples.

Results

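The genes described here are 9 that are known as disallowed in beta cells. They are Ldha, Slc16a1, Acot7, Oat, Mgst1, Cxcl12, Igfbp4, Smad3 and Pdgfra. All 9 had a row in both deposited count tables, which together list 33038 genes. The tables come from RevGel-seq, which ties each cell to a barcoded bead and lyses it in a gel to sequence its RNA. Islets, the endocrine clusters of the pancreas, were taken from mice and dissociated. By the labels, all of them were control islets at 8 weeks, in 2 libraries called library 1 and library 2 here. According to the methods of the study, the animals were male C57BL/6J, islets were picked by hand, and both libraries are technical replicates of 1 preparation with 10000 input cells each. No other genotype, treatment or age was compared, and no difference between animals can be read from these values.

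Cells were grouped by their hormone transcripts. A hormone counted from 1% of the unique molecular identifiers (UMIs, counted transcripts) of a cell, with Ins1 and Ins2 added as insulin. Library 1 held 182 insulin-only, 182 Gcg-only, 35 Sst-only and 54 Ppy-only cells. Library 2 held 190, 174, 23 and 68 of them. There were 91 and 92 hormone-free cells, which served as the side on which the 9 genes could be found. Cells with both Gcg and Ppy numbered 65 and 86, those with Sst and Ppy 77 and 71, and those with insulin and any other hormone 37 and 27. The remaining 12 and 17 cells, with Gcg and Sst, were counted but not compared.

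Beta cells release insulin when glucose is metabolised in their mitochondria, which raises ATP and closes potassium channels. Disallowed genes are housekeeping or broadly used genes that most tissues express and beta cells keep very low. Lactate dehydrogenase and the monocarboxylate transporter MCT1 are the best-known examples, because they would let muscle-derived pyruvate and lactate feed that signal during exercise. Other members serve fatty acid, amino acid and redox metabolism, or carry signals from growth factors and chemokines.

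The libraries held 15931154 and 17440292 UMIs, with medians of 17340 and 18922 a cell. The lowest cell had 4704 UMIs, 0 cells were removed, and the tables shared 0 barcodes. The 7 beta cell markers (Iapp, Mafa, Slc2a2, G6pc2, Nkx6-1, Ucn3, Pdx1) summed to 33779 and 32765 counts per 1000000 UMIs (CPM) in insulin-only cells, against 571 and 429 CPM in Gcg-only cells. The sum was 13790 and 13965 CPM in Sst-only cells and 11570 and 10244 CPM in cells with Sst and Ppy, of which Iapp alone gave 13613 and 13800 CPM and 11360 and 10033 CPM. Mafa, a beta cell transcription factor, had 723 and 713 CPM in insulin-only cells, and 1.99 and 0 CPM in Sst-only cells. At least 3 of the 7 markers were found in 182 of 182 and 188 of 190 insulin-only cells, and in 8 of 35 and 6 of 23 Sst-only cells. Insulin-only cells are called beta cells here on these markers, which the grouping did not use. The hormone-free cells were a mixture. By a rule set after the data were seen, at least 3 markers of exactly 1 list, 41 and 39 of them carried leukocyte markers, 26 and 31 endothelial, 10 and 11 ductal, 6 and 2 mesenchymal, and 0 and 2 Schwann cell markers. Another 3 and 4 met the rule for more than 1 list, and 5 and 3 for none. Their 8 pan-endocrine markers summed to 4078 and 2873 CPM, against 31995 and 29008 CPM in insulin-only cells. Some hormone-positive cells also carried foreign markers: 39 had at least 3 endothelial, leukocyte or mesenchymal markers, and 8 of these were insulin-only. Results that rest on these 39 cells are given with and without them. The ductal and Schwann lists were not used in this step. At least 3 ductal markers were found in 5 and 3 insulin-only cells, 4 and 4 Sst-only cells, and 21 and 18 cells with Sst and Ppy. No cell was left out for its ductal markers.

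The promoters of Ldha, Slc16a1 and Oat are shown because they are the members whose start sites hold the short motif ACGTG, the core of the hypoxia response element. Each window runs 5′ to 3′ on the gene's strand from 250 bases before to 50 bases after a RefSeq start (GRCm38.p6). Capitals mark ACGTG read on either strand.

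Ldha, chr7:46845554-46845853, + strand: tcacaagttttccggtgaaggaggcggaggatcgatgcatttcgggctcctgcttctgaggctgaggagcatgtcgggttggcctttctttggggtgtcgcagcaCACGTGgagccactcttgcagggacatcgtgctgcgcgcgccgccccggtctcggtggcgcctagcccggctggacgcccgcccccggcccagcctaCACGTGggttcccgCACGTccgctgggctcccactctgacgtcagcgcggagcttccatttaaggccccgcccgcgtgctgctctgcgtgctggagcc
Slc16a1, chr3:104638414-104638713, + strand: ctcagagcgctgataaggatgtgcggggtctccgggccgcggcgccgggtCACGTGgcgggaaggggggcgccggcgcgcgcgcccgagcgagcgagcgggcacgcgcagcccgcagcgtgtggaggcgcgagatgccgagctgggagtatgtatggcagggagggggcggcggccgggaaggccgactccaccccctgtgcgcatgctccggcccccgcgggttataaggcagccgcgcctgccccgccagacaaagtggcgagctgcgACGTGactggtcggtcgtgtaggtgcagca
Oat, chr7:132576349-132576648, - strand: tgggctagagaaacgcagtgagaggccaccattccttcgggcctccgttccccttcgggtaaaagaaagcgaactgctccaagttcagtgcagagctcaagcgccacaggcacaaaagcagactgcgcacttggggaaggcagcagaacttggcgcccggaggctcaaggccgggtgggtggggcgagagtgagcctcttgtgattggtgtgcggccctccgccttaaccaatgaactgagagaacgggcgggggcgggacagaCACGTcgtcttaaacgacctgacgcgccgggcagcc

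ACGTG was found in 3 of the 11 windows of the 9 members and in 19.6% of all 32851 windows. The palindrome CACGTG, which holds ACGTG on both strands and is the E-box read by MYC and related factors, was in the Ldha and Slc16a1 windows and in 7.15% of all windows. A second Ldha window, at chr7:46846832-46847131, held neither. GGGCGG, the GC box, was in the windows of 7 members and in 35.7% of all windows. CCAAT was in the Oat window alone among members, against 37.4% of all windows, and TATAAA in the Igfbp4 window alone, against 13.6%. All motifs were searched on both strands. A match describes these letters only and is no measured binding.

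All 9 genes were scarce in insulin-only cells and present in hormone-free cells. Counts were summed per group and library, and 16 sums were fitted with edgeR's quasi-likelihood test over 14975 genes with Benjamini-Hochberg adjustment. Of the 9 members, 8 passed the filter on low counts and Pdgfra did not. Slc16a1, Mgst1 and Cxcl12 passed through the hormone-free sums alone, so these 3 had to be high there and their calls against hormone-free cells are given as a description. The other 5 (Ldha, Acot7, Oat, Igfbp4 and Smad3) also passed without the hormone-free sums, and 5 of 5 were lower in insulin-only than in hormone-free cells, while 30.8% of all genes tested were called lower in insulin-only cells. The 5 were also lower in Gcg-only, Sst-only and Ppy-only than in hormone-free cells, where 29.8%, 25.2% and 28.6% of all genes were called lower. In Sst-only cells, the Smad3 call was lost without either of their libraries (adjusted p = 0.0648 and 0.0506, edgeR), and the Acot7 call without their library 2 (adjusted p = 0.0755) or library 2 of hormone-free cells (adjusted p = 0.163). These 4 comparisons share the hormone-free cells. In a sum over mixed hormone-free cells, fewer cells of a type and less RNA of a gene per cell cannot be told apart.

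**Figure D1:**
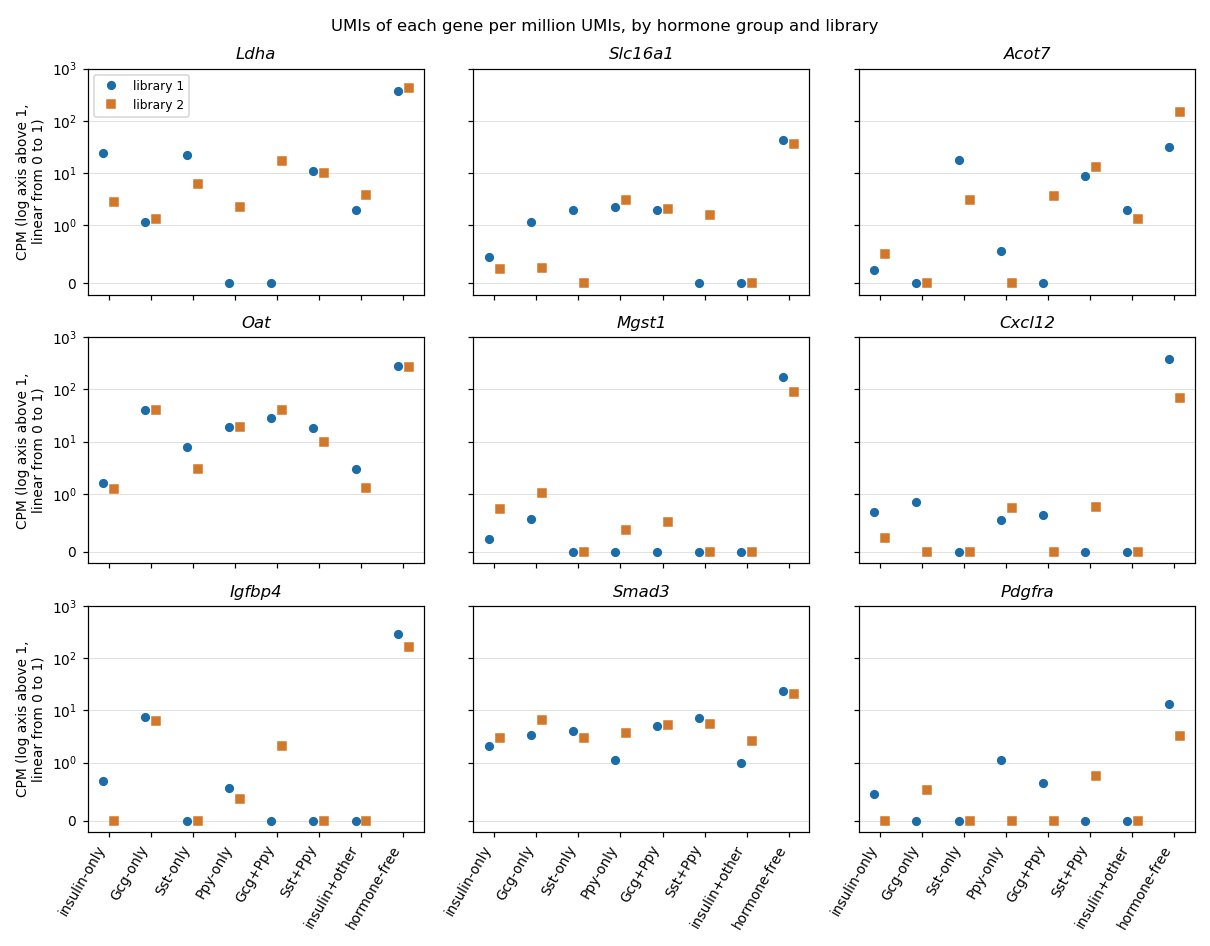
Level of each of the 9 genes (CPM, log axis above 1 and linear from 0 to 1) in 8 hormone groups, with 1 point per library and no error bar. The hormone-free points lie above the others in every panel, Oat is also seen in Gcg and Ppy groups, and the insulin-only Ldha point of library 1 (23.9 CPM) stands above that of library 2 (2.72 CPM).

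Ldha encodes the A subunit of lactate dehydrogenase, which interconverts pyruvate and lactate. Insulin-only cells of libraries 1 and 2 had 23.9 and 2.72 CPM, against 371 and 415 CPM in hormone-free cells. The groups did not overlap, and the difference was -4.17 ± 0.54 (log2 fold change ± SE, adjusted p = 5.00e-06, edgeR). The 2 insulin-only values stood far apart from each other, and 1 cell of library 1 held 102 of its 104 Ldha UMIs. That cell had 79715 UMIs, 12.9% of them insulin, and UMIs of all 8 leukocyte markers. Scrublet did not call it a doublet. In library 2, the cells with 6 and 5 leukocyte markers held 5 and 2 of the 11 Ldha UMIs. Without the cells that carried foreign markers, Ldha was 0.241 and 1.01 CPM in insulin-only cells, or 0.0649% and 0.243% of the hormone-free level.

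**Figure D2:**
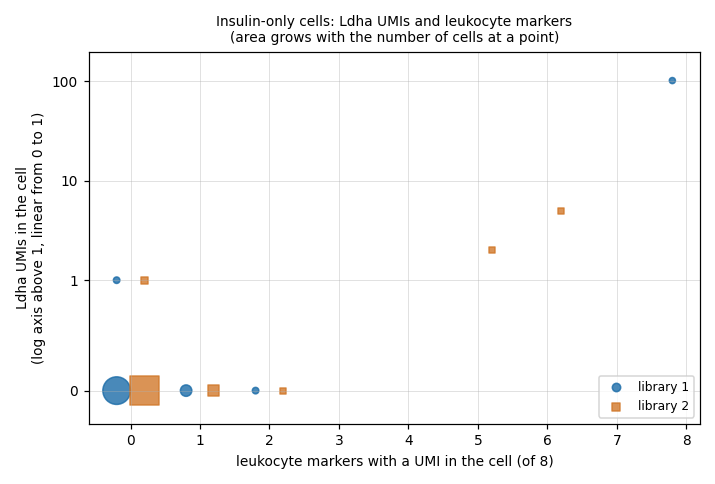
Ldha UMIs of each insulin-only cell (vertical, log axis above 1 and linear from 0 to 1) against the number of the 8 leukocyte markers with a UMI in the same cell (horizontal). Point area grows with the number of cells at a position, and the cell with 102 Ldha UMIs sits at 8 markers.

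In the other hormone groups, Ldha was 1.15 and 1.32 CPM in Gcg-only cells and 0 and 2.27 CPM in Ppy-only cells. It was 21.9 and 6.02 CPM in Sst-only cells and 11.1 and 9.98 CPM in cells with Sst and Ppy. Without the cells with foreign markers, the Sst-only values were 12.7 and 6.02 CPM and those with Sst and Ppy 6.56 and 10.6 CPM, so both Sst groups had more Ldha than insulin-only cells (0.241 and 1.01 CPM) in each library. In the cells with Gcg and Ppy it was 0 and 17.1 CPM, and 1 cell with 8 leukocyte markers held 30 of the 33 UMIs of library 2. Ldha shares long stretches with pseudogenes such as Gm5452 (95.9% identity over 997 bases), which had 12 UMIs against 1706 of Ldha, so reads could be split between them to a small extent.

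Slc16a1 encodes MCT1, which carries lactate and pyruvate across the cell membrane. It had 0.459 and 0.247 CPM in insulin-only cells and 43.2 and 36.0 CPM in hormone-free cells. That is 3 UMIs against 147, a ratio of 109 with a 95% counting interval of 36.7 to 537 (edgeR log2 fold change -5.89 ± 0.67, adjusted p = 1.65e-06). The filter set the direction of this call. Ratios and their intervals here and below are of UMIs per total UMIs of a group, hormones included. The fit rescales the sums, so its fold changes differ in size from these ratios. Gcg-only cells had 1.15 and 0.264 CPM, Sst-only cells 1.99 and 0 CPM, and Ppy-only cells 2.22 and 3.02 CPM. All endocrine groups therefore lay below both hormone-free values. Slc16a1 overlaps the intronic transcripts Gm43581 and Gm43585 on its own strand, with 70 and 12 UMIs beside 177.

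Acot7 encodes an acyl-CoA thioesterase that splits long-chain acyl-CoA and is best known from neurons. It had 0.230 and 0.494 CPM in insulin-only cells, against 31.3 and 144 CPM in hormone-free cells (-7.06 ± 0.90, adjusted p = 5.73e-06, edgeR). These were 3 UMIs against 362, a ratio of 270 (91.5 to 1314). The hormone-free values differed between libraries: in library 2, 1 cell of 177513 UMIs with markers of more than 1 list held 142 of the 312 Acot7 UMIs, and 1 cell with Schwann cell markers held 96. Gcg-only cells had 0 UMIs in both libraries, which makes the hormone-free level at least 233-fold higher, with 3 counts over the group as the floor. Averaged over the libraries, its highest levels in endocrine cells were in those with Sst. Sst-only cells had 17.9 and 3.01 CPM, the latter from 1 UMI, and cells with Sst and Ppy 8.75 and 13.1 CPM. Of the cells with Sst and Ppy, 9 and 10 had a UMI of it, with at most 5 in a cell. In library 2, 1 cell with Gcg and Ppy, which had 8 leukocyte markers, held 7 Acot7 UMIs. Ppy-only cells had 0.556 and 0 CPM.

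Oat encodes ornithine aminotransferase, the mitochondrial enzyme that links ornithine to glutamate and proline. Its level differed between endocrine groups. Insulin-only cells had 1.61 and 1.23 CPM and cells with insulin and another hormone 2.97 and 1.29 CPM, 2 ranges that overlap. Sst-only cells had 7.95 and 3.01 CPM, cells with Sst and Ppy 18.3 and 9.98 CPM, and Ppy-only cells 19.5 and 18.9 CPM. Cells with Gcg and Ppy had 28.9 and 40.8 CPM and Gcg-only cells 40.8 and 40.7 CPM, which also overlap. Hormone-free cells were highest, with 284 and 271 CPM. Against insulin-only cells this was -6.84 ± 0.27 (adjusted p = 6.88e-12, edgeR), a ratio of 194 (110 to 376) from 12 and 1041 UMIs. Against Gcg-only cells the hormone-free level was 6.79-fold higher by UMIs (5.96 to 7.75). The rescaled fit gave -2.40 ± 0.18 for Gcg-only against hormone-free cells (adjusted p = 8.55e-09, edgeR). A UMI of Oat was found in 70 of 182 and 77 of 174 Gcg-only cells, with at most 8 in a cell. The gene overlaps Fgfr2 on the same strand, which had 145 UMIs beside 1622 of Oat.

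Mgst1 encodes a membrane-bound glutathione transferase that detoxifies lipid peroxides. It had 0.230 and 0.741 CPM in insulin-only cells and 173 and 90.1 CPM in hormone-free cells (-7.24 ± 0.54, adjusted p = 5.55e-08, edgeR). The filter set the direction of this call. The 4 insulin-only Mgst1 UMIs against 471 give a ratio of 263 (102 to 970). In Gcg-only cells it was 0.575 and 1.06 CPM, and in Ppy-only cells 0 and 0.378 CPM. Sst-only cells had 0 UMIs, so the hormone-free level was at least 34.9-fold higher there. No endocrine group exceeded 1.06 CPM in either library.

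Cxcl12 encodes the chemokine SDF-1, a ligand of the receptor Cxcr4. It had 0.689 and 0.247 CPM in insulin-only cells, against 377 and 69.3 CPM in hormone-free cells (-8.00 ± 0.87, adjusted p = 1.69e-06, edgeR). The filter set the direction of this call. For Cxcl12 there were 4 UMIs against 752, a ratio of 420 (163 to 1546). Library 1 held 6 cells with mesenchymal markers and library 2 held 2, and those cells held most of its UMIs. In library 2, 1 cell held 131 of the 150 Cxcl12 UMIs of hormone-free cells. Igfbp4 encodes a binding protein that keeps insulin-like growth factors from their receptor. It had 0.689 and 0 CPM in insulin-only cells and 294 and 165 CPM in hormone-free cells (-8.42 ± 0.55, adjusted p = 1.56e-08, edgeR). Gcg-only cells stood apart from the other endocrine groups with 7.48 and 6.34 CPM, from 50 UMIs in 17 and 13 cells. Sst-only cells had 0 UMIs of Cxcl12 and of Igfbp4. Igfbp4 shares short stretches with transcripts of other genes, which had 12372 UMIs for Bclaf1 (95.2% identity over 105 bases) and 3465 for Tnks2 (96.4% over 111 bases), beside 887 of Igfbp4. Whether reads were split between these genes was not tested.

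Pdgfra encodes a receptor for platelet-derived growth factor and marks mesenchymal cells. It had 0.459 and 0 CPM in insulin-only cells and 13.2 and 3.23 CPM in hormone-free cells. The 2 and 28 UMIs give a ratio of 31.3 (7.89 to 271), and no test was made for it. Smad3 encodes the protein that carries TGF-beta and activin signals to the nucleus, and of the tested members it had the smallest fold between these groups. It had 2.07 and 2.96 CPM in insulin-only cells against 23.2 and 20.8 CPM in hormone-free cells (-2.38 ± 0.49, adjusted p = 4.77e-04, edgeR), a ratio of 8.73 (5.35 to 14.8). Gcg-only cells had 3.45 and 6.60 CPM, Sst-only cells 3.97 and 3.01 CPM and Ppy-only cells 1.11 and 3.78 CPM, so the Ppy-only range overlapped that of insulin-only cells. The Gcg-only and Sst-only CPM values lay above it, the latter from 2 and 1 UMIs. In the fit, which rescales the sums, Smad3 was 0.22 ± 0.88 in insulin-only against Sst-only cells (adjusted p = 0.916, edgeR). Its level in Gcg-only cells was -1.74 ± 0.45 below that of hormone-free cells (adjusted p = 0.00367, edgeR), a call that was lost without library 1 of Gcg-only cells (-1.36, adjusted p = 0.0759, edgeR).

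How much of each gene was left in insulin-only cells can be set against markers of cells that are not beta cells. Without cells that carried foreign markers, the 8 endothelial markers summed to 0.366% and 0.295% of their hormone-free level, and the 8 leukocyte markers to 0.329% and 0.393%. Ldha, Oat, Cxcl12 and Igfbp4 were left at 0% to 0.364% in the same cells. Slc16a1, Acot7 and Mgst1 were at 0% in library 1 and at 0.701%, 0.350% and 0.561% in library 2, from 2 UMIs or fewer. The cells left out were chosen by these same lists, which lowers the list values by itself. In all insulin-only cells of library 1, the endothelial and leukocyte lists stood at 1.78% and 2.52%. The lists are therefore no independent baseline, and whether these 7 genes exceeded a background was not tested. Without cells that carried foreign markers, Pdgfra was at 3.67% and 0%, from 2 UMIs. Smad3 was left at 9.36% and 13.4%, above both trimmed lists in both libraries. In all insulin-only cells of library 1, Smad3 was at 8.92%. In Gcg-only cells, after the same step, Oat was left at 14.6% and 14.8% and Igfbp4 at 2.58% and 3.25%. These lay above the marker lists there (0.367% to 0.522%), which that step had also trimmed. Smad3, at 13.9% and 31.0%, and Slc16a1, at 2.70% and 0.745%, were also above these trimmed lists in both libraries. The Slc16a1 values rest on single UMIs in 4 cells and 1 cell. Without that step, the endothelial list of library 2 had 138 CPM in Gcg-only and 6160 CPM in hormone-free cells. That is a larger share than that of Slc16a1, so the lists are no independent baseline here either. Pdgfra was at 0% and 16.6%, from 2 UMIs, and Ldha, Acot7, Mgst1 and Cxcl12 at 0% to 0.596%.

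Whether insulin-only cells held less than other endocrine cells was asked with 3 further contrasts. Against Gcg-only cells, 2 of the 8 tested members were lower and 1 higher, where 11.6% of all genes were called lower and 13.0% higher in insulin-only cells. Oat was lower by -4.44 ± 0.29 (adjusted p = 6.03e-09, edgeR), a ratio of 28.5 (16.1 to 55.9) from 12 and 296 UMIs. Igfbp4 was lower by -3.75 ± 0.77 (adjusted p = 0.00233, edgeR), from 3 and 50 UMIs and with a ratio of 19.3 (6.23 to 96.7). Ldha was higher by 3.71 ± 0.96 (adjusted p = 0.0081, edgeR). That call was lost without cells that carried foreign markers, among them the cell with 102 Ldha UMIs: the difference was then -0.054 (adjusted p = 0.987, edgeR). It was also lost without library 1 of insulin-only cells (1.52, adjusted p = 0.478) and without either library of Gcg-only cells (3.62 and 3.82, adjusted p = 0.0787 and 0.079, edgeR). Smad3 was -0.64 ± 0.51 (adjusted p = 0.412, edgeR).

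Against Sst-only cells, 0 of the 8 tested members were called by edgeR, where 7.03% of all genes were called lower and 7.55% higher in insulin-only cells. The unadjusted p was under 0.05 for 1 member, Acot7 (-4.12 ± 1.46, adjusted p = 0.0713, edgeR), and DESeq2 called 1. Acot7 had 3 UMIs in insulin-only and 10 in Sst-only cells, a ratio of 33.6 (8.64 to 190). Without cells that carried foreign markers, 2 members were lower in insulin-only cells, Ldha by -3.16 (adjusted p = 0.0107, edgeR) and Acot7 by -4.62 (adjusted p = 0.0481, edgeR). Before that step, Ldha had been 0.52 ± 1.04 (adjusted p = 0.809, edgeR). The Sst-only sums were the smallest, with 35 and 23 cells.

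Against Ppy-only cells, 2 members were lower and 1 higher, where 9.49% of all genes were called lower and 10.5% higher. Oat was lower by -3.54 ± 0.34 (adjusted p = 6.90e-07, edgeR) and Slc16a1 by -2.59 ± 0.86 (adjusted p = 0.0428, edgeR), from 3 and 12 UMIs. Ldha was higher by 3.42 ± 1.10 (adjusted p = 0.0364, edgeR), which became 0.43 (adjusted p = 0.849) without cells that carried foreign markers. It was also lost without library 1 of insulin-only cells (1.23, adjusted p = 0.642) and without either library of Ppy-only cells (adjusted p = 0.211 and 0.124, edgeR). The Slc16a1 call was lost without cells that carried foreign markers (adjusted p = 0.0899, edgeR) and with either library left out of either group. Without cells that carried foreign markers, Oat was the only member called. These 3 contrasts share the insulin-only cells.

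**Figure D3:**
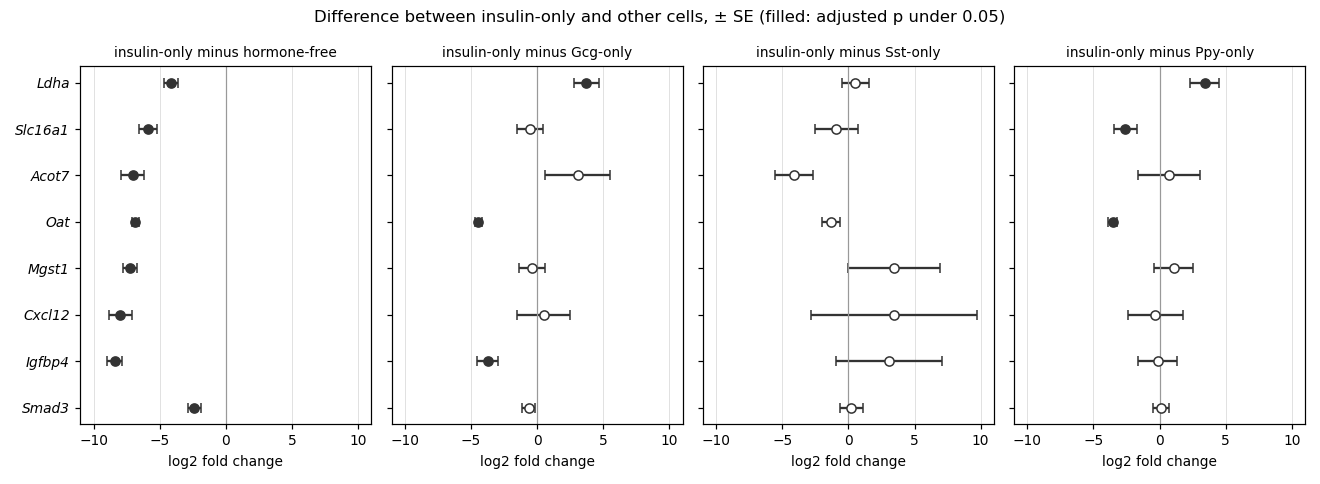
Log2 fold change (± SE) of the 8 tested members between insulin-only cells and 4 other groups, with filled points at an adjusted p under 0.05 and negative values for lower levels in insulin-only cells. All 8 points against hormone-free cells are filled and negative, but the filter set this in advance for Slc16a1, Mgst1 and Cxcl12. Against endocrine cells, Oat is the point farthest from 0 among the filled ones (-4.44 and -3.54). The fits of Acot7 against Gcg-only cells and of Mgst1, Cxcl12 and Igfbp4 against Sst-only cells rest on 0 UMIs in the other group and give no size.

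The same was asked of single cells. After thinning to 4000 UMIs a cell, 5 of 182 insulin-only cells of library 1 and 4 of 190 of library 2 held a UMI of any of the 9 genes, which is 2.75% (95% exact interval 0.898% to 6.29%) and 2.11% (0.577% to 5.30%). Unthinned, these shares were 8.79% and 10.5%. Of hormone-free cells, 81.3% (71.8% to 88.7%) and 81.5% (72.1% to 88.9%) held such a UMI, or 94.5% and 96.7% unthinned. Gcg-only cells lay between them at 20.3% (14.7% to 26.9%) and 17.2% (11.9% to 23.7%), and 18.7% and 14.4% of them held Oat. The Gcg-only intervals lay above the insulin-only ones in both libraries. Sst-only cells had 14.3% and 17.4%, Ppy-only cells 9.26% and 14.7%, cells with Gcg and Ppy 12.3% and 15.1%, and cells with Sst and Ppy 13.0% and 9.86%. Their intervals overlapped those of insulin-only cells in at least 1 library for Sst-only, Ppy-only and both mixed groups. Cells with insulin and another hormone had 5.41% (0.661% to 18.2%) and 0% (0% to 12.8%), the latter from 27 cells. Median depths were 18735 UMIs in insulin-only, 18187 in Gcg-only and 14085 in hormone-free cells. The 4000 UMIs include hormones, at a median of 40.4% insulin in insulin-only and 24.3% Gcg in Gcg-only cells. Depth for other genes was therefore not equal between groups, and was lower in insulin-only than in hormone-free cells. Intervals and floors cover counting error only.

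**Figure D4:**
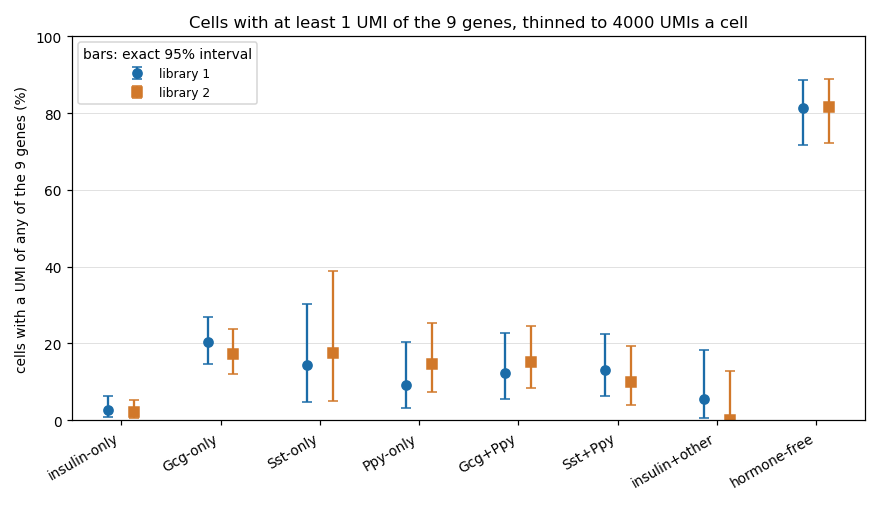
Share of cells (%) with at least 1 UMI of any of the 9 genes after thinning to 4000 UMIs a cell, by hormone group, with 1 point per library and exact 95% intervals as bars. Insulin-only cells (2.75% and 2.11%) lie near the bottom and hormone-free cells (81.3% and 81.5%) at the top.

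At least 2 of the 9 genes were seen together in 0 and 1 thinned insulin-only cells, in 4 and 2 Gcg-only cells and in 37 and 40 hormone-free cells. The highest number in 1 hormone-free cell was 6. Within insulin-only cells, the shares were alike at medium and high insulin: unthinned, 7.94% and 9.24% of cells with 30% to 50% insulin and 8.00% and 8.51% of those from 50% held a UMI of any of them. Below that, from 10% to 30% insulin, it was 13.8% and 18.2% of 29 and 22 cells, and 4 of the former carried foreign markers.

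The 9 genes were held by different hormone-free cells. Ldha was broad: the 21 cells with ductal markers had 817 CPM, the 80 with leukocyte markers 386 CPM and the 57 with endothelial markers 181 CPM, and a UMI of it was in 85.7%, 87.5% and 93.0% of them. Oat and Mgst1 were led by cells with ductal markers, which held 77.2% of the hormone-free Oat UMIs and 84.3% of those of Mgst1. The levels there were 1093 and 540 CPM. The summed ductal list did not set hormone-free cells apart, with 627 and 486 CPM there and 690 and 642 CPM in Ppy-only cells. The cell with the most Oat UMIs (177) had 5 ductal markers and 6 of the 8 pan-endocrine markers. Cell names here stand for the marker lists only. Cells with leukocyte markers had 80.4 CPM of Oat and 3.49 CPM of Mgst1. Slc16a1 had 93.2 and 88.9 CPM in cells with ductal markers of the 2 libraries and 45.6 and 29.6 CPM in those with leukocyte markers.

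Cells with mesenchymal markers held 87.2% of the Cxcl12 UMIs, at 6206 CPM, although they were 8 cells. The cells with leukocyte markers had 0 Cxcl12 UMIs in 80 cells, which allows a share of cells with a UMI of up to 3.75% (3 of 80 cells). Of the same 8 cells, 5 had a UMI of Pdgfra, and they held 24 of its 28 hormone-free UMIs. Igfbp4 was split between endothelial cells, with 41.5% and 49.3% of its UMIs in libraries 1 and 2, and mesenchymal cells, with 47.2% and 11.5%. Smad3 was spread, with 85.1 CPM in mesenchymal, 29.9 in ductal, 24.5 in endothelial and 13.1 in leukocyte cells, each from 28 UMIs or fewer. Outside the 2 cells named above, Acot7 was at 46.3 CPM in leukocyte, 36.7 in endothelial and 31.3 in ductal cells. A UMI of it was in 28.8%, 38.6% and 47.6% of them. Library 1 held 602 Cxcl12 UMIs in hormone-free cells and library 2 held 150, beside 6 and 2 mesenchymal cells.

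**Figure D5:**
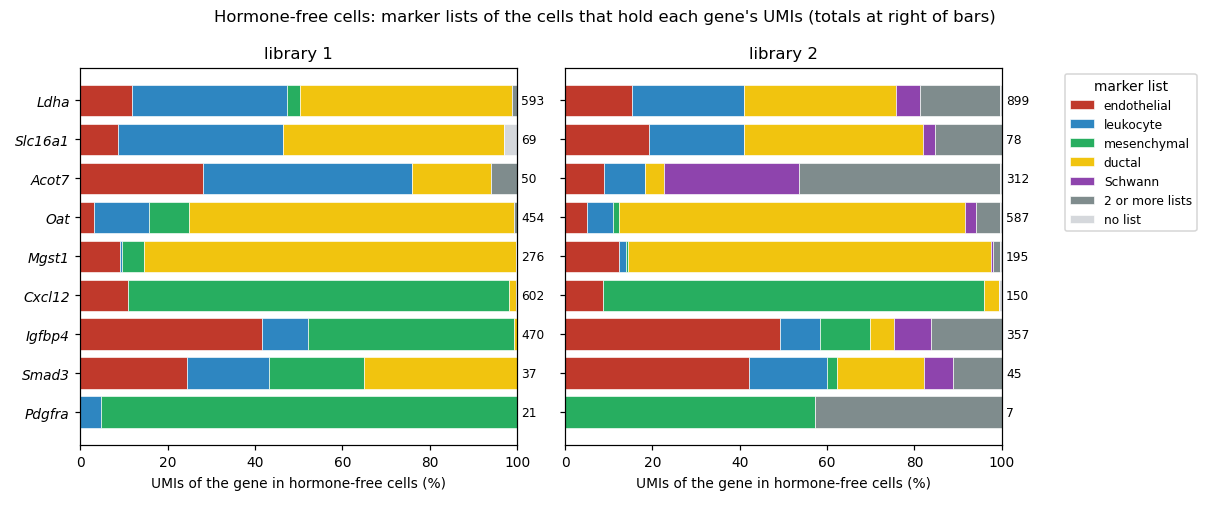
For each gene and library, the share (%) of its UMIs in hormone-free cells that lay in cells with at least 3 markers of 1 list, of more than 1 list or of none, with the total UMIs at the right. Mgst1 and Oat are filled mostly by the ductal list, Cxcl12 and Pdgfra by the mesenchymal list, and Acot7 differs between the libraries.

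The genes whose levels followed the members most closely were sought over the 16 sums among 10312 genes, by Pearson r of log2(CPM + 1), for members above a mean of 10 CPM. For Ldha these were Hars (0.945), Lyn (0.942) and Akt1 (0.940), and for Acot7 Pafah1b1 (0.959), Arhgdia (0.946) and Ywhaz (0.937). For Oat they were Fads2 (0.955), Uqcrfs1 (0.954) and Eef1b2 (0.951), and for Mgst1 Csf2rb (0.994), Prap1 (0.992) and 2210407C18Rik (0.985). For Cxcl12 they were 2210407C18Rik (0.989), Dcn (0.984) and Cdh17 (0.979), and for Igfbp4 Pabpc1 (0.964), Maf (0.958) and Mgst1 (0.956). The sums share libraries, and 14 of the 16 are endocrine, so these values describe mainly the step to hormone-free cells.

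Genes around the members did not share one direction. In each list of such genes, 1 to 3 of the tested genes passed the filter through the hormone-free sums alone, and a lower level of these in insulin-only cells was set by the filter. Slc16a3, Acot9, Mgst2, Cxcr4, Tgfbr2 and Pdgfrb, named below, are among them. Their values against hormone-free cells are a description. In all genes tested, 30.8% were called lower and 26.1% higher in insulin-only than in hormone-free cells. The shares called lower were 11.6%, 7.03% and 9.49% against Gcg-only, Sst-only and Ppy-only cells, and those called higher 13.0%, 7.55% and 10.5%. Of 7 further genes described as low in beta cells (Maf, Garem1, Zfp36l1, Yap1, Cat, Rest, Hk1), 6 were tested. Maf and Cat passed the filter through the hormone-free sums alone, and the other 4 (Zfp36l1, Yap1, Rest, Hk1) were lower in insulin-only than in hormone-free cells. Maf had 0 and 1.48 CPM against 89.6 and 105 CPM, and Yap1, an effector of Hippo signalling, 0.459 and 0.741 against 51.4 and 61.0 CPM. Against Gcg-only cells 3 of the 6 were lower, led by Hk1, a hexokinase of high glucose affinity (1.84 and 0.494 against 21.6 and 25.3 CPM, -3.90 ± 0.49, adjusted p = 1.25e-05, edgeR), and by Yap1 (-3.36 ± 0.62, adjusted p = 5.54e-04, edgeR). Against Sst-only cells 1 was lower, Rest, a repressor of neuronal genes (1.84 and 0.494 against 17.9 and 9.04 CPM), and against Ppy-only cells 3 were lower. The Rest call was lost without library 2 of insulin-only cells (adjusted p = 0.0956) or library 1 of Sst-only cells (adjusted p = 0.384, edgeR).

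Of 23 tested genes for lactate and pyruvate handling, 7 were lower and 5 higher in insulin-only than in hormone-free cells, with a median of -0.26. Of the 22 that passed the filter without the hormone-free sums, 6 were lower and 5 higher. The lactate exporter Slc16a3 had 3 UMIs in insulin-only and 28 in hormone-free cells, a ratio of 20.9 (6.44 to 107), and Pdk4, which inhibits pyruvate dehydrogenase, 3 and 91 (67.8, 22.5 to 335). Pcx, the pyruvate carboxylase that refills the citric acid cycle, was higher in insulin-only cells at 56.0 and 63.5 CPM against 6.26 and 8.31 CPM (3.72 ± 0.32, adjusted p = 4.32e-08, edgeR). Emb, which escorts monocarboxylate transporters to the membrane, was also higher (267 and 253 against 41.3 and 74.8 CPM). Against Gcg-only cells, 3 of the 23 were lower and 5 higher, where 11.6% of all genes were called lower and 13.0% higher. Pdk4 stood out with 0.230 and 0.494 CPM in insulin-only and 108 and 105 CPM in Gcg-only cells. Against Sst-only cells, 2 were lower and 4 higher, where 7.03% of all genes were called lower and 7.55% higher. Slc16a7, the transporter MCT2, had 0.459 and 0.741 CPM against 67.6 and 75.3 CPM in Sst-only cells, while Gpd2, of the glycerol phosphate shuttle, had 143 and 140 against 35.8 and 15.1 CPM.

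In the acyl-CoA thioesterase list, 4 of 9 tested genes were lower and 1 higher in insulin-only than in hormone-free cells. Of the 8 that passed the filter without the hormone-free sums, 3 were lower and 1 higher. Acot9 was lower (4.36 and 1.73 against 31.9 and 39.7 CPM), and Acot11 was higher in the fit (1.06 ± 0.36, adjusted p = 0.0191, edgeR) although its CPM ranges overlapped. The Acot11 call was lost without library 2 of insulin-only cells (adjusted p = 0.21) or library 1 of hormone-free cells (adjusted p = 0.204, edgeR). In the ornithine, arginine and proline list, 5 of 10 were lower and 3 higher, among them Pycr1 of proline synthesis (10.8 and 15.6 against 3.76 and 2.31 CPM). Of the 8 that passed without the hormone-free sums, 3 were lower and 3 higher. Arg1, which makes ornithine, had 7.12 and 6.91 CPM in insulin-only cells against 124 and 129 CPM in Gcg-only cells (-3.81 ± 0.16, adjusted p = 1.73e-11, edgeR), and 634 and 723 CPM in Sst-only cells. Of the MAPEG proteins, the family of membrane proteins that Mgst1 belongs to (Mgst2, Mgst3, Alox5ap, Ltc4s, Ptges), 4 were tested, and 3 were lower and 1 higher. Of the 3 that passed without the hormone-free sums, 2 were lower and 1 higher. Mgst2 was lower, with 0.459 and 0.494 against 41.3 and 38.8 CPM.

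Among signalling genes, 2 of 3 genes for Cxcl12 receptors and processing were lower in insulin-only than in hormone-free cells, with Cxcr4 at 2.30 and 0.988 against 95.2 and 90.5 CPM. Both passed the filter through the hormone-free sums alone, and the third, Dpp4, was not called. In the insulin-like growth factor list, 4 of 8 were lower and 3 higher, and 3 and 3 of the 7 that passed without those sums. Igfbp3 had 6.20 and 0.494 against 1204 and 1315 CPM, and Igfals 22.5 and 23.0 against 1.25 and 0.924 CPM. In the TGF-beta and SMAD list, 11 of 19 were lower and 2 higher, and 8 and 2 of the 16 that passed without those sums. The receptor Tgfbr2 was lower (2.07 and 0.988 against 88.3 and 110 CPM), and Acvr1c, the receptor ALK7, was higher (21.1 and 19.3 against 4.38 and 4.16 CPM). In the PDGF list, 3 of 4 were lower and 1 higher, and 1 and 1 of the 2 that passed without the hormone-free sums. Pdgfrb had 2 UMIs against 131, a ratio of 146 (39.7 to 1221).

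The genes lie on GRCm38 as follows in GENCODE M21. Ldha (ENSMUSG00000063229) spans chr7:46841475-46855627 on the + strand and Oat (ENSMUSG00000030934) chr7:132557478-132576398 on the - strand. Slc16a1 (ENSMUSG00000032902) spans chr3:104638668-104658462 and Acot7 (ENSMUSG00000028937) chr4:152178134-152271855, both on the + strand. Mgst1 (ENSMUSG00000008540) spans chr6:138140316-138156755 and Cxcl12 (ENSMUSG00000061353) chr6:117168535-117181367, both on the + strand. Igfbp4 (ENSMUSG00000017493) spans chr11:99041244-99054392 and Pdgfra (ENSMUSG00000029231) chr5:75152292-75198215, both on the + strand, and Smad3 (ENSMUSG00000032402) chr9:63646767-63757994 on the - strand. Counts come from the exons of these genes.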

How the data were processed

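The authors deposited 1 table of whole-number UMI counts per library. Per their methods, the Cytonaut software made these counts with UMI-tools, from reads aligned to exons of GRCm38 with the Ensembl annotation, deduplicated, for barcodes above a knee in depth. The labels name UMI-tools and Seurat. The aligner is not given in the sources used here. Transcripts were tagged at the end that carries the barcode, so counts were not compared between genes.

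Cells were required to have at least 200 genes and at most 20% mitochondrial UMIs, which removed 0. Cells with a hormone at 1% of UMIs or more were grouped, and counts were summed by group and library. CPM is UMIs scaled to 1000000 UMIs, hormones included (a median of 40.4% insulin in insulin-only cells). The 16 sums (331967 to 4356370 UMIs) were fitted in R 4.3.3 with edgeR 4.0.16 (TMM, filterByExpr, glmQLFit and glmQLFTest, 7 contrasts, 8 residual degrees of freedom, biological coefficient of variation 15.2%, threshold 0.05). DESeq2 1.42.0 was an alternative. On simulated counts for insulin-only against Gcg-only cells (13135 genes), the fit recovered 100% of 8-fold and 66% of 2-fold changes, with 11 false calls. Changes were planted only in genes with many UMIs over the 16 sums, with the same spread for all genes. These shares do not apply to sparser members, such as Acot7 and Slc16a1 with 418 and 177 UMIs. P-values measure the spread between technical replicates. An exact permutation test of 2 against 2 cannot go below 0.333 and was not used. Shares have exact Clopper-Pearson intervals at 95%, after thinning each cell to 4000 UMIs with none shallower. Ratios of UMIs have conditional exact intervals and use total UMIs without the TMM scaling. The TMM factors were 0.791 and 0.722 for insulin-only and 1.25 and 1.24 for hormone-free sums. Ratios of hormone-free over insulin-only levels are therefore larger than the fitted fold changes. Doublets were called with Scrublet in scanpy 1.11.5 (8 in each library), kept, and removed as an alternative. Near-identical transcripts were sought with BLAST 2.17.0 (95% identity over 100 bases or more).

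Named were all 9 members, from each related list at most the 2 called genes with the largest fold change in each direction, and the 3 genes most like a member. The members, lists and tests were chosen with earlier results of these data known. Sequences are from RefSeq (GRCm38.p6), with all 9 members matched, and coordinates from GENCODE M21. Alternatives were another test, scaling, filter, hormone threshold, composition, number of cells, doublet removal, a replicate block, fewer groups and each library left out.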

Additional observations from a re-analysis of the deposited data

How the results depend on the processing

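Against hormone-free cells, Ldha, Acot7, Oat, Igfbp4 and Smad3 stayed lower in insulin-only cells under each alternative that tested them. Drawing 23 cells for every sum left 10348 genes and 5 members tested, and 5 were called in each of the 4 contrasts with hormone-free cells. The filter was run again on these smaller sums. Whether the 5 also passed without the hormone-free sums was not tested, so these calls are a description. The genes called over all then fell from 8509, 8273, 6727 and 7800 to 3787, 3487, 3480 and 3838. The same draw gave 1 member against Gcg-only and 1 against Ppy-only cells (genes over all 3689 to 1003, 2992 to 923, and 2182 to 706 against Sst-only cells).

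Against Sst-only cells, 0 members were called, but 1 with DESeq2, 1 with no filter, 1 with the replicate block, 1 at a hormone threshold of 2%, 2 at 5% and 2 without cells that carried foreign markers, a step chosen after seeing the data. Ldha reversed there to -0.049 at 0.5%, -1.54 with equal cells and -3.16 without those cells, and ranged from -1.67 to 1.89 with a library left out. Without those cells, Ldha against Gcg-only cells was -0.054. Against Ppy-only cells, 3 members were called, but 1 with DESeq2 and 1 without those cells, and 1 to 2 with a library left out. Leaving out a library also lowered the genes called over all to between 2162 and 2441 against Gcg-only, 1192 at the lowest against Sst-only and 1548 at the lowest against Ppy-only cells, with more genes tested (16041 to 16627). In these data the library numbers do not pair the sums (correlations of -0.055 to 0.096 over 28 pairs, 0 above 0.1). The replicate block moved no other count of members by over 1.5 times. Igfbp4 against Gcg-only cells lost its call at a threshold of 0.5% (-1.55, adjusted p = 0.125, edgeR). Of 424 alternative values for 27 member fold changes, 383 kept direction and side of the threshold. The cause of these changes was not tested.

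The share of thinned insulin-only cells with a UMI of any member was 2.43% on average. It was 9.66% with no thinning, 3.02% at a threshold of 0.5% and 1.65% without cells that carried foreign markers. With no thinning, Gcg-only, Sst-only, Ppy-only and hormone-free cells had 50.4%, 30.9%, 51.5% and 95.6%. Sst-only cells had 9.61% at 5% and 13.4% without those cells. Hormone-free cells had 81.6% at 0.5% and 73.7% at 5%. Members at 3 UMIs or fewer in a group have no useful bound on how low they are.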
